A study of Mus musculus with 6 samples.

Results

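*Aspa*, *Car4*, *Dsg3*, *Prss30*, *1810065E05Rik* and *Clca4a* are 6 mouse genes whose reads were more numerous in the libraries labelled 4-OHT than in those labelled EtOH at day 6 of organoid culture, while the same comparison at day 4 was near zero or lower. They were chosen by these very values, 6 of 56884 genes counted and 6 of 14066 with enough reads to be tested at day 6. Their day 6 and day 4 differences are therefore given as descriptions, without p-values. Put into numbers, the choice reads: called higher at day 6 (an edgeR test with Benjamini-Hochberg adjustment and a limit of 0.05) with a day 4 log2 fold change of 0.25 or less. Of the 320 genes called higher at day 6, 2.27% of those tested, 19 met it, and all 6 genes were among these 19. The 19 are 0.135% of the genes tested and 5.94% of those called higher.

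The libraries come from organoids grown from the small intestinal epithelium of mice that carry 3 alleles, Villin-CreERT2, Lgr5-EGFP-IRES-CreERT2 and Ythdf2 fl/fl. In these mice the Villin promoter drives a tamoxifen-inducible Cre across the intestinal epithelium, the Lgr5 allele carries GFP together with a further inducible Cre in stem cells, and the floxed alleles encode the m6A reader YTHDF2. Control and treated organoids share this genotype. One arm received 0.5 µM 4-hydroxytamoxifen (4-OHT), which activates the Cre, and the other arm ethanol (EtOH), its solvent, and Lgr5-GFP+ cells were sorted on day 4 or day 6. There are 2 EtOH and 2 4-OHT libraries at day 6 and 1 of each at day 4. Nothing in the labels says that the replicates came from separate cultures or mice, so p-values measure only the spread between these samples, which may be technical.

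The 6 genes belong to different families. Aspartoacylase, encoded by *Aspa*, splits N-acetylaspartate into acetate and aspartate, and its loss causes Canavan disease of the brain. *Car4* encodes a carbonic anhydrase tethered to the outer membrane, a marker of mature surface epithelium in the gut. *Dsg3* encodes a desmosomal cadherin that holds cells of stratified squamous epithelium together and is the main autoantigen of pemphigus vulgaris. *Prss30* encodes a trypsin-like serine protease, *Clca4a* a protein of the calcium-activated chloride channel regulator family, and *1810065E05Rik* a protein of no role stated here.

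The sequences that bear on the counts are those of *Clca4a* and its neighbour *Clca4b*, because reads of near-identical copies are hard to place. The first 120 coding bases of the canonical transcripts, transcript positions 32 to 151 of *Clca4a* and 31 to 150 of *Clca4b*, are printed 5′ to 3′, with the 4 bases that differ in capitals.
Clca4a: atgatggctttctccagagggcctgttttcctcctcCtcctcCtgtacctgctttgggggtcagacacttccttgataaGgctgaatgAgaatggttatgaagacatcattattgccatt
Clca4b: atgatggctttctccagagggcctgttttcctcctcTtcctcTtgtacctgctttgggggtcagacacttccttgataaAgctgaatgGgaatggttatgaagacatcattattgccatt

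Upstream sequences are shown for 3 of the genes, as members that were high in the same libraries: *Aspa* and *Car4*, which had no read in either EtOH library at day 6, and *1810065E05Rik*, whose window held matches to the TATA box and CDX motifs. Each is the 250 bases before the start of the canonical transcript in GRCm39, 5′ to 3′ on the gene's own strand, with matches to the motifs in capitals. They lie at chr11:73215483-73215732 on the minus strand for *Aspa*, at chr11:84848116-84848365 on the plus strand for *Car4* and at chr11:58311687-58311936 on the plus strand for *1810065E05Rik*.
Aspa: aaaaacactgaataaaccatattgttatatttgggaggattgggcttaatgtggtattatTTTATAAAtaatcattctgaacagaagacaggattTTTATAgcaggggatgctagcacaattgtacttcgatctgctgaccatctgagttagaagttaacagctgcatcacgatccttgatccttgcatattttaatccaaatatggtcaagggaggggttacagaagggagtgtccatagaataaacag
Car4: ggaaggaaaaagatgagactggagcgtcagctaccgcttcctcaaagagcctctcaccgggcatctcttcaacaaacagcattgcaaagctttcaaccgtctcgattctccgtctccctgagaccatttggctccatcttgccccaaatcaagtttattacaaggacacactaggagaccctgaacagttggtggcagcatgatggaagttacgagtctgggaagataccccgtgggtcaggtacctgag
1810065E05Rik: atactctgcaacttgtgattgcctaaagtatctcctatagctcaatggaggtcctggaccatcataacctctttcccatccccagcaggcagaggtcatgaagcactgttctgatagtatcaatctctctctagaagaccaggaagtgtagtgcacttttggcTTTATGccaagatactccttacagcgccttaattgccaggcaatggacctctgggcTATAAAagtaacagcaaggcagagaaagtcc
Motifs were searched on both strands from 250 bases before to 50 bases after the start, and the background is the same window of 21770 protein-coding genes. The TATA box letters TATAAA, present in 13.2% of those windows, occurred in 3 of the 6 genes. In *1810065E05Rik* they lay at -31 to -26 and in *Clca4a* at -164 to -159. In *Aspa* they lay at -155 to -150 and in overlapping matches on opposite strands at -190 to -185 and -188 to -183. The letters TTTATG, bound by the intestinal CDX factors and present in 11.0% of windows, occurred only in *1810065E05Rik* among the 6, at -87 to -82. GGAATG, bound by TEAD factors and present in 14.0%, occurred only in *Clca4a*, at 29 to 34. The other motifs were in none of the 6 windows: AGATAA, in 10.58% of all windows and bound by GATA factors, CAAAGTCCA, in 0.45% and bound by HNF4, and TGANTCA, in 7.14% and bound by AP-1. A match is a description of letters and shows no binding. The GC content of the windows ran from 37.7% in *Clca4a* and 38.3% in *Aspa* to 54.0% in *Prss30*, beside a median of 54.3% over all windows.

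Library totals ran from 14345379 to 21461835 gene counts, so that 14.8 to 21.5 counts correspond to 1 CPM, the unit of level used here, in which counts are divided by the library total after TMM scaling. The day 4 libraries are titled in another style than the day 6 libraries, with the letters ISC. Reads assigned to no gene were 2.63% to 3.76% of all entries at day 6 against 6.19% and 6.70% at day 4. The days may thus be separate library series, and a comparison between days cannot be told apart from one between such series. *Ythdf2*, the targeted gene, had 1563 and 1312 counts in the EtOH libraries and 4463 and 3816 in the 4-OHT libraries at day 6 (log2 fold change 1.37, SE 0.16, edgeR adjusted p 0.0018) and was also higher at day 4 (1.14). This goes against a loss in the libraries labelled 4-OHT, and every direction below is between libraries as labelled. The gene counts do not show which exons the reads cover. At day 6, 353 genes (2.51% of those tested) were called different, 320 higher and 33 lower.

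*Dsg3*, the squamous desmosomal cadherin (ENSMUSG00000056632, chr18:20643331-20680516, plus strand), had no read in either EtOH library at day 6. The 4-OHT libraries had 35 and 39 reads, or 1.63 and 2.09 CPM (1.86 ± 0.330, SD, n = 2). At day 4 the EtOH library had 18 reads (0.916 CPM) and the 4-OHT library 9 (0.609 CPM). Both 4-OHT libraries at day 6 stood above all 4 others, and the 2 EtOH libraries at day 6 stood below both day 4 libraries. With the EtOH floor set to 3 counts over both libraries, the 4-OHT level at day 6 was 22.1 times that floor. The exact 95% lower limit of the ratio, which also covers the counting error of the 4-OHT reads, was 17.5. Against the day 4 EtOH library the day 6 4-OHT level was only 2.01 times as high (95% counting interval 1.19 to 3.58). The day 4 ratio of 4-OHT to EtOH was 0.665 (0.263 to 1.56).

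*Aspa* (ENSMUSG00000020774, chr11:73187042-73220422, minus strand) likewise had no read in either EtOH library at day 6. It had 39 and 25 reads in the 4-OHT libraries, or 1.81 and 1.34 CPM (1.58 ± 0.332, SD, n = 2). At day 4 it had 4 reads in the EtOH library and 1 in the 4-OHT library. *Aspa* was thus close to the limit of detection everywhere except in the 2 4-OHT libraries of day 6. Their level was 19.1 times the EtOH floor, with an exact 95% lower limit of 15.1 for the ratio to EtOH. It was 7.82 times that of the day 4 EtOH library (2.91 to 29.6). The day 4 ratio was 0.332 with an interval from 0.00675 to 3.36, which includes both a rise and a fall.

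*Car4* (ENSMUSG00000000805, chr11:84848020-84856879, plus strand) had 0 reads in both EtOH libraries at day 6 and 33 and 21 in the 4-OHT libraries, or 1.53 and 1.13 CPM (1.33 ± 0.287, SD, n = 2). At day 4 it had 7 reads in the EtOH library and 1 in the 4-OHT library. The level with 4-OHT at day 6 was at least 16.1-fold higher than the EtOH floor (exact lower limit 12.7), while against the day 4 EtOH library the ratio was 3.77 (1.71 to 9.82). The day 4 ratio was 0.190, and its interval, 0.00421 to 1.48, includes 1.

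For these 3 genes the control value at day 6 is a count of 0, which allows a level of up to 0.161 CPM in the first EtOH library and 0.174 CPM in the second. The day 4 EtOH library had 18, 7 and 4 reads of *Dsg3*, *Car4* and *Aspa*. Among the 9690 genes at 0 in both day 6 EtOH libraries and counted elsewhere, 31 (0.320%) had 18 or more reads in the day 4 EtOH library, 425 (4.39%) had 7 or more and 1417 (14.6%) had 4 or more. *Dsg3* was among these 31, but the choice of the genes favours this. A low day 4 ratio, which the choice asks for, goes with reads in the day 4 EtOH library. Only 8 of the 9690 had enough reads to be tested at day 6. Measured with the day 4 EtOH library as the control, the folds of *Dsg3*, *Car4* and *Aspa* were 2.01, 3.77 and 7.82 in place of the bounds above. The genes were chosen for the day 6 4-OHT level in these ratios, and the day cannot be told apart from the library series. Those of *Prss30*, *1810065E05Rik* and *Clca4a* were 6.60 (3.48 to 14.1), 2.86 (1.89 to 4.48) and 26.5 (14.7 to 53.4).

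**Figure D1:**
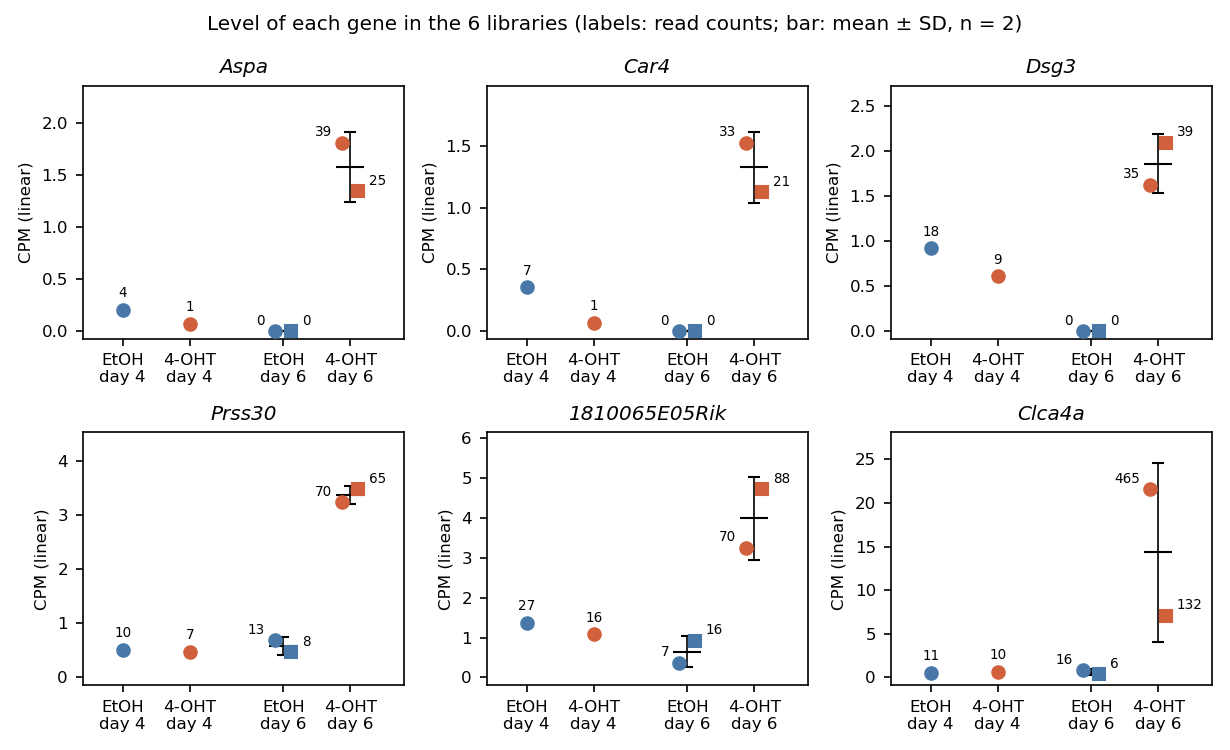
Level of each gene in CPM (linear axis) in the 6 libraries, with the read count beside each point and the mean ± SD of the 2 replicates at day 6 as a bar. In each panel both 4-OHT libraries of day 6 lie above the other 4 libraries, and *Clca4a* shows the widest gap between its 2 points, 465 and 132 reads.

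*Prss30* (ENSMUSG00000024124, chr17:24191100-24203700, minus strand) was the gene with the closest replicates. Its counts were 13 and 8 in the EtOH libraries and 70 and 65 in the 4-OHT libraries at day 6, or 0.580 ± 0.165 against 3.37 ± 0.167 CPM (SD, n = 2 each). At day 4 it had 10 reads with EtOH and 7 with 4-OHT, near the day 6 controls (0.509 and 0.474 CPM). All 4 controls and day 4 libraries thus lay between 0.463 and 0.697 CPM, and the 2 4-OHT libraries of day 6 stood apart from them. The summed ratio at day 6 was 5.75 (3.61 to 9.59) and the fitted log2 fold change 2.52 (SE 0.48). The day 4 ratio was 0.931 (0.301 to 2.71).

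*1810065E05Rik* (ENSMUSG00000013653, chr11:58311920-58316851, plus strand) had 7 and 16 reads in the EtOH libraries and 70 and 88 in the 4-OHT libraries at day 6, or 0.650 ± 0.389 against 3.98 ± 1.04 CPM (SD, n = 2 each). The day 4 libraries lay between these groups, with 27 reads (1.37 CPM) with EtOH and 16 (1.08 CPM) with 4-OHT. The groups at day 6 did not overlap, but the control level depended on the library: the fitted log2 fold change of 2.62 (SE 0.52) became 2.09 to 3.39 when 1 library was left out. The day 4 EtOH library was 2.15 times (1.19 to 3.92) as high as the EtOH libraries of day 6. The day 4 ratio was 0.788 (0.397 to 1.52).

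*Clca4a* (ENSMUSG00000068547, chr3:144658241-144680806, minus strand) had the highest CPM of the 6, before any correction for length, and the widest gap between replicates. It had 16 and 6 reads in the EtOH libraries and 465 and 132 in the 4-OHT libraries at day 6, or 0.602 ± 0.361 against 14.3 ± 10.3 CPM (SD, n = 2 each). At day 4 it had 11 reads with EtOH and 10 with 4-OHT. The first 4-OHT library was 35.3 times as high as the summed controls (23.0 to 56.8) and the second 11.6 times (7.33 to 19.1), intervals that do not overlap. The fitted log2 fold change was 4.55 (SE 0.64), and 3.53 to 5.34 with 1 library left out. The day 4 ratio was 1.21 (0.460 to 3.14).

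**Figure D2:**
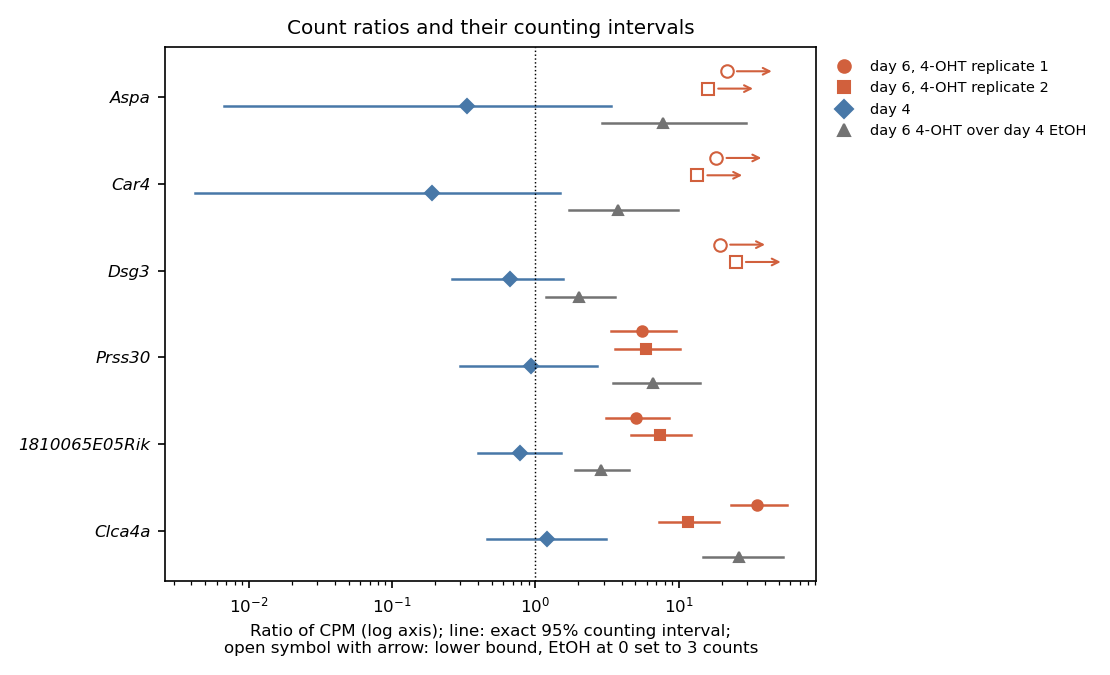
Ratio of 4-OHT to EtOH for each gene on a log axis, with exact 95% counting intervals as lines and lower bounds as open symbols with arrows where the EtOH count was 0. The choice of the genes sets that the day 4 values lie near or below 1 and the day 6 values above it. The widths show the counting error, and the day 6 4-OHT level over the day 4 EtOH library runs from 2.01 for *Dsg3* to 26.5 for *Clca4a*.

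The 2 replicates with 4-OHT at day 6 differed by no more than counting error for 4 of the 6 genes. The ratio of replicate 1 to replicate 2 was 1.35 for *Aspa* (0.797 to 2.33), 1.36 for *Car4* (0.764 to 2.47), 0.777 for *Dsg3* (0.478 to 1.26) and 0.932 for *Prss30* (0.656 to 1.33). For *1810065E05Rik* it was 0.689 (0.496 to 0.953), just outside counting error. For *Clca4a* it was 3.05 (2.51 to 3.73), far outside it. The library that was higher was not the same for all genes: replicate 1 for *Aspa*, *Car4* and *Clca4a*, replicate 2 for the other 3. In all 6 genes both 4-OHT libraries exceeded both EtOH libraries, a pattern that 19.9% of all genes tested share and that the choice of these genes fixes. With 2 libraries against 2, an exact permutation test of a single gene cannot give a p below 1/3.

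Per kilobase of all annotated exon bases, on the CPM scale, the order of levels in the 4-OHT libraries at day 6 was *Clca4a* (4.77), *1810065E05Rik* (3.88), *Prss30* (1.29), *Car4* (0.388), *Dsg3* (0.266) and *Aspa* (0.183). The first pair could not be ordered, since *Clca4a* gave 7.19 and 2.36 and *1810065E05Rik* 3.16 and 4.60 in the 2 libraries. The order of the last 3 depends on the length used. Per kilobase of the canonical transcript, which is 1552 bases for *Aspa*, 1504 for *Car4* and 6212 for *Dsg3*, the levels were 1.02, 0.884 and 0.299, so that *Aspa* moved from last to the place after *Prss30* (2.27). On that scale *Aspa* (1.17 and 0.864) and *Car4* (1.02 and 0.749) overlapped between libraries. *Dsg3*, *Car4* and *Aspa* were below *Prss30* on both scales. *Ythdf2* stood at 34.2 and 33.7 per kilobase of all exon bases, above all 6 genes.

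Low counts limit the fitted fold changes of the 3 genes with a control count of 0. The fit gave log2 fold changes of 8.14 (SE 1.34) for *Dsg3*, 7.92 (SE 1.41) for *Aspa* and 7.68 (SE 1.47) for *Car4*, which rank 3, 5 and 6 among the 320 genes called higher. These values depend on the small prior count of the fit and are not bounds. With a prior count of 2 they became 4.22, 4.01 and 3.78, and with 5 they became 3.01, 2.82 and 2.61. *Clca4a* ranked 18, *1810065E05Rik* 75 and *Prss30* 86. Only 8 genes with 0 reads in both EtOH libraries at day 6 passed the filter on low counts, which needs reads in the 4-OHT libraries. Of these 7 were called, and 3 of the 7, the genes described here, had a day 4 value of 0.25 or less.

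**Figure D3:**
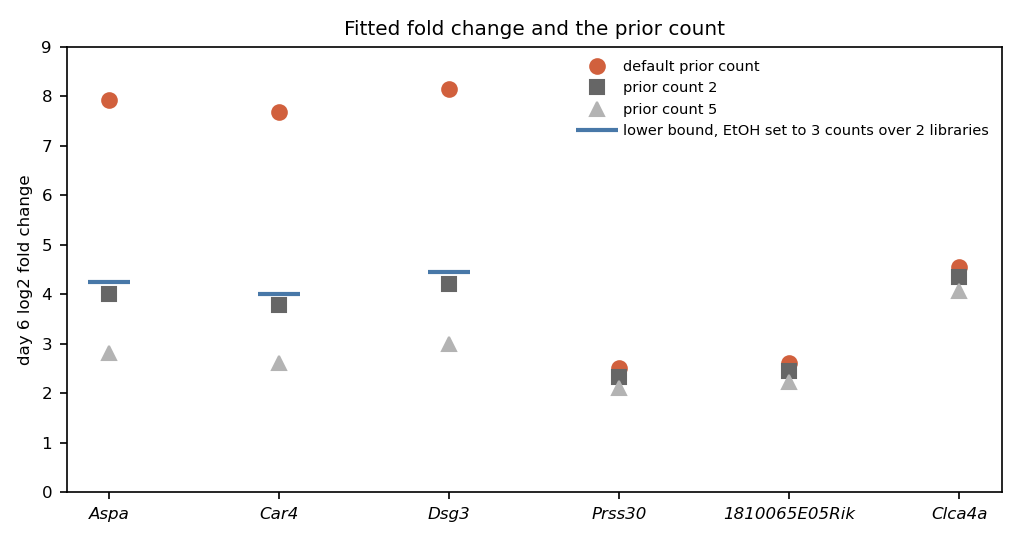
Fitted day 6 log2 fold change of each gene with the default prior count of the fit and with prior counts of 2 and 5, and, for the 3 genes at 0 in the EtOH libraries, the lower bound with 3 counts over both libraries. The values of *Aspa*, *Car4* and *Dsg3* fall from near 8 to near 3 as the prior count grows.

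The calls of the 6 genes depended on the EtOH libraries. All 6 stayed called under DESeq2, other scaling, no filter and a fit of all 6 libraries, which their choice from the same counts favours. Without the first EtOH library none of the 6 was called, and without the second EtOH library 3 were (*Dsg3*, *1810065E05Rik* and *Clca4a*). Without the first EtOH library the fitted log2 fold changes were 7.93 for *Aspa*, 7.68 for *Car4* and 8.15 for *Dsg3*. These 3 genes had 0 reads in both EtOH libraries, so leaving 1 out could hardly move their values and shows no stability. For the genes with control reads the fitted changes were 2.84 (*Prss30*), 2.09 (*1810065E05Rik*) and 5.34 (*Clca4a*), lower than in the full fit only for *1810065E05Rik*. Without the second EtOH library those of *Prss30*, *1810065E05Rik* and *Clca4a* were 2.27, 3.39 and 4.07. With either 4-OHT library left out all 6 were called. Over all genes, 145 were called without the first EtOH library and 454 without the second, against 353.

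*Clca4a* has a close copy that is far more abundant. The canonical transcripts of *Clca4a* and *Clca4b* are identical at 95.6% of 2996 aligned bases, with a longest identical run of 168 bases, and 5.96% of the 100-base windows of *Clca4a* are identical in *Clca4b*. *Clca4b* had 4880 and 4761 reads in the EtOH libraries and 9397 and 6767 in the 4-OHT libraries at day 6, and 4141 with EtOH and 2089 with 4-OHT at day 4. Its day 6 difference did not pass the test (log2 fold change 0.58, SE 0.17, edgeR adjusted p 0.145) and its day 4 value was -0.58. As a percent of *Clca4b* reads, *Clca4a* reads were 0.328 and 0.126 in the EtOH libraries, 4.95 and 1.95 in the 4-OHT libraries of day 6, and 0.266 (EtOH) and 0.479 (4-OHT) at day 4. The ratio of the 2 genes was thus not the same in the 2 groups. The deposited tables hold reads that map to several places in a summary line outside all genes. How reads common to both genes were placed was not tested, and the *Clca4a* counts are uncertain for that reason. A pseudogene copy, 95.1% identical over 2779 bases, had 0 to 4 reads per library. On 11.1% of its exon bases *Clca4a* overlaps *Gm16233* on the other strand, which had no read at day 6.

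**Figure D4:**
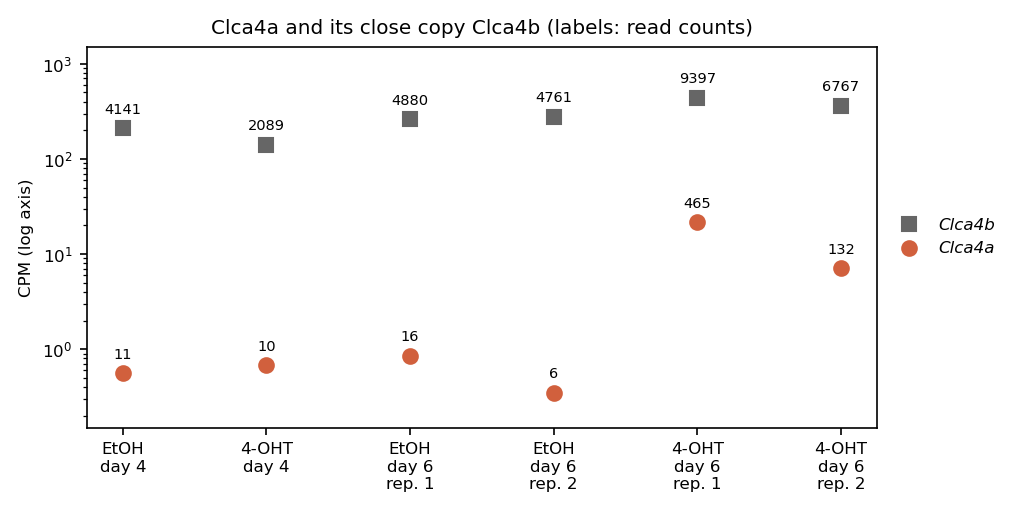
*Clca4a* and *Clca4b* in CPM on a log axis in the 6 libraries, with read counts beside the points. *Clca4b* stays between 141 and 436 CPM, while *Clca4a* is below 1 CPM in 4 libraries and at 21.6 and 7.08 CPM in the 4-OHT libraries of day 6.

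The other genes have no such copy. *Aspa* and *Car4* had no similar transcript among other genes, *Dsg3* matched *Dsg4* at 67.7% over 1212 bases, and *1810065E05Rik* matched *Lypd8l* at 65.9% over 495 bases. *Prss30* matched *Gm43727* at 82.9% over 391 bases. *Lypd8*, next to *1810065E05Rik*, had 9182 and 9104 reads with EtOH and 8496 and 10896 with 4-OHT at day 6, and was not called (log2 fold change -0.054, SE 0.20, edgeR adjusted p 0.973). Of the 36 nearest neighbours of the 6 genes, 3 on each side, 9 were tested at day 6 and 1 was called. That gene was *Clca1*, a secreted goblet cell protein next to *Clca4a*, with 486 and 489 reads against 1684 and 924 (log2 fold change 1.24, SE 0.23, edgeR adjusted p 0.0210). Unlike *Clca4a* it had a day 4 value of 1.41. *Clca1* was called without the second 4-OHT library and not without any of the others: its edgeR adjusted p was 0.127 without the first EtOH library, 0.0517 without the second and 0.241 without the first 4-OHT library.

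In the families of the 6 genes, 2 of 36 other genes tested were called higher at day 6 (5.56%) and none lower, counts too small to set apart from the 2.27% over all genes. At an unadjusted p under 0.05 there were 13 of the 36, beside 10.3% of all genes tested. Of 7 other carbonic anhydrases tested, 1 was higher and none lower: *Car2*, a cytosolic enzyme, with 175 and 202 reads against 629 and 560 (log2 fold change 1.50, SE 0.23, edgeR adjusted p 0.00677). At day 4 *Car2* had 129 reads with EtOH and 319 with 4-OHT, the opposite order to *Car4*. The median log2 fold change of the 7 was 0.25, beside -0.013 over all genes tested. Of 5 other *Clca* genes tested, *Clca1* was called, and the median was -0.22.

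Of 8 other desmosome genes tested, none passed the edgeR test, while 4 had an unadjusted p under 0.05. Among them the cadherins *Dsg2* and *Dsc2*, which are those of simple epithelium, both had log2 fold changes of 0.46, and the plakophilin *Pkp1* had -0.95 (adjusted p 0.0774). With DESeq2 1 of the 8 was lower. The median over the 8 was 0.18. *Dsg4*, which adjoins *Dsg3* on the chromosome, had 1 to 4 reads per library at day 6.

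Of 3 other genes of N-acetylaspartate and aminoacylase metabolism tested, none was called by edgeR, with 2 at an unadjusted p under 0.05 and a median of 0.41. *Nat8l*, which makes N-acetylaspartate, had 0 reads in both EtOH libraries and 2 and 3 in the 4-OHT libraries at day 6, too few to test. *Folh1*, which releases N-acetylaspartate from its peptide, and *Slc13a3*, a transporter of it, had no read at day 6. Of 13 other trypsin-like proteases tested, none was called by edgeR, 3 had an unadjusted p under 0.05 and DESeq2 called 1 higher and 1 lower. Those nearest the threshold were *Prss23*, with a log2 fold change of 1.29 (edgeR adjusted p 0.0729), and *Tpsg1*, with -1.19 (0.0641). The median over the 13 was 0.0092.

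Among the 320 genes called higher at day 6 the usual day 4 value was a rise: the median was 1.39, and 220 of the genes (68.75%) had a day 4 log2 fold change of 1 or more. Over all genes tested 75.6% had a day 4 value of 0.25 or less and 49.3% a value below 0. Of the 19 genes that met the choice in numbers, 9 were below 0 at day 4, among them *Car4* (-1.40), *Aspa* (-0.82), *Dsg3* (-0.51), *1810065E05Rik* (-0.32) and *Prss30* (-0.085). *Clca4a*, at 0.23, lay just inside the threshold, next to *Ces2c* (0.21) and *Tmem236* (0.22). Just outside lay *Cyp4f16* (0.25), *Ace* (0.26) and *Plac8* (0.29). With the threshold at 0, 9 genes met the choice and *Clca4a* was not among them. With 0.5, 39 did. The 6 genes hold ranks 1 to 6 of the 19 by fitted day 6 log2 fold change. The last margin is narrow, with 2.52 for *Prss30* and 2.48 for *Ifit3* at rank 7. With any 1 day 6 library left out, the fitted value of *Ifit3* passed that of *Prss30* or *1810065E05Rik*.

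**Figure D5:**
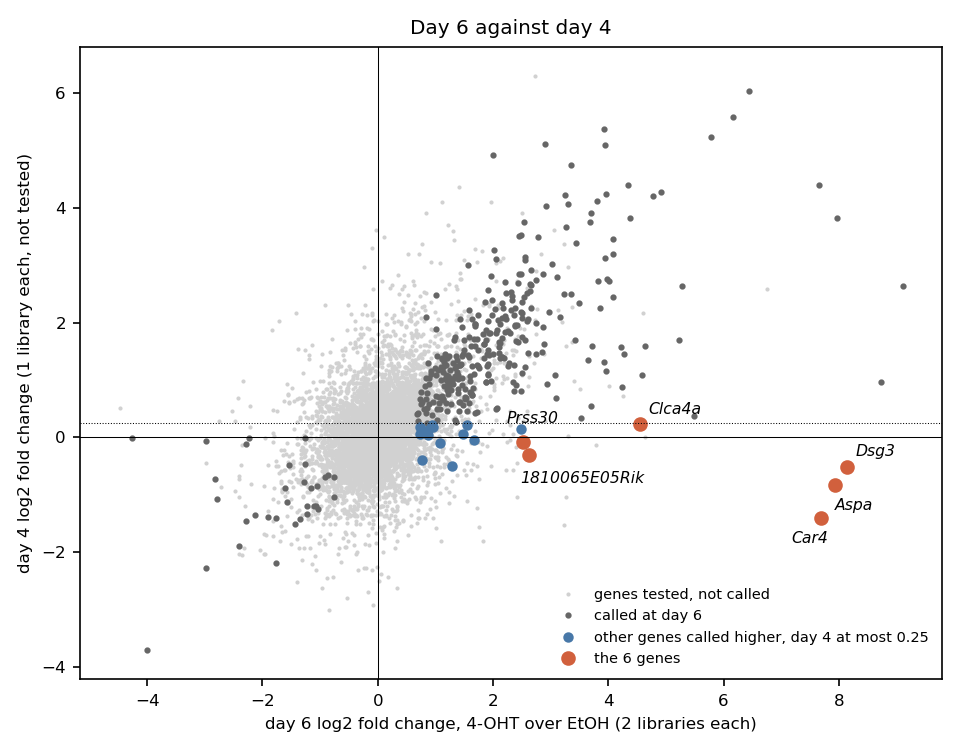
Day 6 log2 fold change (x axis) against the day 4 value (y axis, 1 library per label and no test) for the 14066 genes tested, with the genes called at day 6, the 19 genes at or under the dotted line of 0.25 and the 6 genes marked. The 6 genes extend to the right, from 2.52 to 8.14, while most genes called higher lie above the line.

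The other 13 of the 19 genes had smaller fitted changes, which follows from the ranks above, and *Ifit3* lay next to *Prss30*. All of the 13 but *Ifit3* had at least 5 CPM in the 4-OHT libraries, as did *Clca4a* of the 6, and the median over the 19 was 66.4 CPM, against 24.0 CPM for the other genes called higher. *Ifit3*, an interferon-induced gene, had 8 and 9 reads against 54 and 53 (log2 fold change 2.48, SE 0.51), with 7 and 6 at day 4. *Mme*, the membrane peptidase neprilysin, had 183 and 130 against 767 and 356 (1.66, SE 0.32). Further genes, singled out after their values were seen, encode proteins of the enterocyte brush border. *Sis*, sucrase-isomaltase, had 3784 and 4739 reads against 18005 and 8983 (1.47, SE 0.26). *Akp3*, an intestinal alkaline phosphatase, had 580 and 472 against 1519 and 1333 (1.29, SE 0.18). *Treh*, trehalase, had 258 and 203 against 616 and 477 (1.09, SE 0.22). *Npc1l1*, the cholesterol uptake protein, and *Cdhr2*, a protocadherin of microvilli, had 0.77 and 0.73. At day 4 *Sis* was at 0.059, *Akp3* at -0.50, *Treh* at -0.099, *Npc1l1* at -0.39 and *Cdhr2* at 0.18. Without the first EtOH library *Akp3* and *Ces2c* (log2 fold change 1.55) alone of the 19 met the choice, and without the first 4-OHT library 10 did, among them *Akp3*, *Sis* and the 6 genes.

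Marker genes of enterocytes moved in the same libraries. Of 20 enterocyte markers, 14 rose at day 6 and none fell by the edgeR test, beside 2.27% of all genes called higher. Their median was 1.57, and their summed level was 2823 and 3484 CPM in the EtOH libraries and 5644 to 6702 CPM in the 4-OHT libraries. Without the first EtOH library 9 of the 20 were called higher. At day 4 the sum was 3135 CPM with EtOH and 3946 CPM with 4-OHT, and 9 of the 14 had a day 4 value of 1 or more, beside 68.75% of all genes called higher. Of 12 stem cell markers 1 fell at day 6 (*Olfm4*, log2 fold change -1.27, edgeR adjusted p 0.0312) and none rose. Over all genes tested 0.235% were called lower. *Olfm4* was not called without the first EtOH library (adjusted p 0.210) or the second 4-OHT library (0.0989). *Lgr5*, the gene that marks the sorted cells, had 4722 and 5944 reads with EtOH and 4487 and 4239 with 4-OHT at day 6 and was not called (log2 fold change -0.45, SE 0.19, edgeR adjusted p 0.413). The list median was -0.25. The sum was 6000 to 6503 CPM with EtOH and 4029 to 4369 CPM with 4-OHT, mostly through *Olfm4*: without it the sums were 3160 and 3760 against 3052 and 3043 CPM. In such mixtures fewer cells of a type and less RNA per cell cannot be told apart, and the part of either list in the counts of the 6 genes was not tested.

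*Car4* and *Dsg3* are markers of other epithelia, and lists for those were read too. Of 11 colonic surface markers tested, 5 were called higher, beside 2.27% of all genes, and none lower. The 5 were *Ceacam20*, *Emp1*, *Guca2b*, *Slc51a* and *Slc9a3*. Without the first EtOH library 1 was called and without the first 4-OHT library 3. The sums were 1118 to 1208 CPM with EtOH and 1401 to 1443 CPM with 4-OHT. *Aqp8*, a defining water channel of that epithelium, had at most 5 reads in a day 6 library. Of 6 stratified squamous markers tested, 2 were called higher, *Ly6d* (10 and 10 reads against 212 and 171, log2 fold change 4.08, SE 0.40) and *Sprr1a* (2.23), beside 2.27% of all genes. Of the other 4, not called, *Pkp1* had -0.95 and *Krt15* -0.81, and *Krt4* and *Sfn* had 1.07 and 0.48. *Ly6d* also differed at day 4, with 8 reads with EtOH and 82 with 4-OHT, whereas *Dsg3* had 18 and 9. The squamous sums were 109 to 146 CPM with EtOH and 183 to 194 CPM with 4-OHT. The defining keratin *Krt5* and the cornified envelope gene *Sprr3* were at 0 in all day 6 libraries, *Krt14* had 0 and 0 against 4 and 1 reads, and *Trp63* had at most 2.

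Immune and stromal markers were low, with most of their reads in 1 gene each. *Cd68* had 82 and 105 reads with EtOH and 125 and 130 with 4-OHT at day 6, and *Pdgfrb* 47 and 20 against 72 and 71. In the 4-OHT libraries neither was small beside *Aspa*, *Car4* and *Dsg3*. Of 8 immune markers 1 was tested and not called, with sums of 4.45 to 6.25 CPM against 6.41 to 7.45 CPM, and *Ptprc* and *Nkg7* were at 0 in all day 6 libraries. Of 8 stromal and endothelial markers 1 was tested and not called, with sums of 1.85 to 3.54 against 4.23 to 4.83 CPM and *Cdh5* and *Col3a1* at 0. The secretory lists were abundant. Of 8 goblet markers 2 were called higher, beside 2.27% of all genes tested, and these calls depended on the library left out. The goblet median was -0.089. The sums were 3422 to 3475 CPM with EtOH and 2602 to 2878 CPM with 4-OHT, lower despite the 2 calls. Most of that difference lay in *Fcgbp*, which was not called and had 2222 and 2430 against 1582 and 1692 CPM. None of 8 Paneth and 8 enteroendocrine markers was called by edgeR, with 3 and 1 at an unadjusted p under 0.05. The Paneth sums were 2907 and 2103 CPM with EtOH and 4941 and 2102 CPM with 4-OHT, and the enteroendocrine sums 419 and 347 against 659 and 346 CPM, in both cases highest in the first 4-OHT library, as was *Clca4a*. Of 6 tuft markers tested 0 had a fitted rise, 5 had an unadjusted p under 0.05, and the median log2 fold change was -1.50. The tuft sums were 22.0 to 41.2 CPM with EtOH against 10.4 to 12.3 CPM with 4-OHT. Only *Dclk1* was called lower (-2.24, edgeR adjusted p 0.0388), beside 0.235% of all genes tested. It was not called without the first EtOH library (adjusted p 0.266) or the second 4-OHT library (0.0663), and without the second EtOH library 2 tuft markers were lower. The part of these cells in the result was not tested.

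The profile of the 6 genes over the 6 libraries was compared with that of every gene of at least 1 CPM, by the Pearson correlation of log2 CPM with the mean standardised profile of the 6. This is a description over 6 libraries that share the day and label structure. The 10 most alike, at 0.964 to 0.990, were *2810459M11Rik*, *Zxdb*, *Lingo3*, *Etfbkmt*, *Trpt1*, *Dixdc1*, *Anxa13*, *Plgrkt*, *Nt5e* and *Akap7*. Only *Anxa13* of these was called at day 6 (log2 fold change 0.73), and it was not called when any 1 library was left out (adjusted p 0.0688 to 0.421). *Nt5e*, the membrane nucleotidase CD73, came closest to the 6 genes in size, with 10 and 9 reads against 73 and 37 at day 6 and 14 and 11 at day 4 (log2 fold change 2.35, SE 0.54, edgeR adjusted p 0.0565). *2810459M11Rik*, the gene with the highest correlation, changed little, from 27.9 ± 0.133 to 30.9 ± 0.0932 CPM (SD, n = 2 each). The correlation by its making ignores the size of a change, so a high value says nothing of size.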

How the data were processed

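The 6 libraries are poly-A selected RNA of sorted Lgr5-GFP+ organoid cells, grouped by treatment and day in the labels. The authors deposited whole-number read counts per gene, not normalised; per the submitters' processing notes STAR and the mm39 build were used, and the annotation release and strand setting are not given in the sources used here. The 4 summary lines that name no gene were left out of library sizes. Symbols and positions come from GENCODE M39 on GRCm39 (56323 of 56884 identifiers matched). Counts were tested with edgeR 4.0.16 (quasi-likelihood, TMM, filterByExpr with a minimum count of 10) in R 4.3.3, on the 4 day 6 libraries, with Benjamini-Hochberg adjustment over 14066 genes. The SE is the absolute log2 fold change over the square root of F. Day 4 values use a prior count of 2 and have no test. Intervals are exact conditional binomial at 95%, and they and the floor of 3 counts cover counting error only, since no molecular identifiers are mentioned. Transcripts were compared with blastn 2.17.0 and Biopython 1.88. The fit was tested on simulated counts. Replicates were no duplicates (chi-square per degree of freedom 33.2 and 22.9).

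The members and lists were chosen with earlier results of these data known. Lists were families of the 6 genes (carbonic anhydrases, desmosome, Clca, N-acetylaspartate, trypsin-like proteases) and markers of enterocytes, colonic surface, squamous, stem, goblet, Paneth, enteroendocrine, tuft, immune and stromal cells. Named genes were the 6, *Ythdf2*, up to 4 called genes per list, family genes of at least 1 CPM, called neighbours, the 10 most alike, 3 genes on each side of the day 4 threshold and the 3 largest other rises meeting it. Other genes named are marked or lie at low counts, and were chosen after their values were seen. Alternatives were DESeq2 1.42.0, its scaling, no filter, the replicate number as a block, all 6 libraries in 1 fit, other prior counts and day 4 thresholds and leaving out each library, and, chosen after seeing the data, the earlier quasi-likelihood method of edgeR.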

Additional observations from a re-analysis of the deposited data

Results flagged for a closer look

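The day 4 and day 6 values had opposite signs for 20 of the genes described. The difference between the days was not tested, since day 4 has 1 library per label. For the 6 genes, and for those chosen by likeness to them or by the same day 4 threshold, this contrast is how they were chosen. The share of opposite signs over all genes tested was not counted, and 49.3% of all genes tested had a day 4 value below 0. The day 4 counting intervals of the 6 genes all include 1. Among the 6 genes the day 4 log2 fold change was -0.82 for *Aspa*, -1.40 for *Car4*, -0.51 for *Dsg3*, -0.085 for *Prss30* and -0.32 for *1810065E05Rik*, all higher at day 6. Among genes of their families, higher at day 6 in both 4-OHT libraries, it was -0.58 for *Clca4b*, -0.45 for *Naaladl1* and -0.060 for *Prss36*. *Tpsg1* was the reverse case, lower in both 4-OHT libraries at day 6 and at 0.22 at day 4. Among the genes most alike in profile it was -0.042 for *2810459M11Rik*, -0.0075 for *Zxdb*, -0.18 for *Lingo3*, -0.069 for *Etfbkmt*, -0.12 for *Dixdc1*, -0.049 for *Plgrkt* and -0.011 for *Akap7*, all near 0. Among the other genes meeting the same threshold it was -0.043 for *Mme*, -0.50 for *Akp3*, -0.099 for *Treh* and -0.39 for *Npc1l1*.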

How the results depend on the processing

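The 6 genes kept their direction under every alternative run, and their calls under all but leaving out an EtOH library. Their choice by the same day 6 counts favours both and makes neither a separate test. In place of 353 genes, 839 were called with the replicate number as a block (all 353 among them) and 145 to 454 with 1 library left out. The labels do not say that the numbers pair samples (correlation across genes of the replicate differences between the groups, 0.266, over 2 pairs). The 19 genes meeting the choice in numbers became 82 under the block, 37 under DESeq2, 9 and 39 with day 4 thresholds of 0 and 0.5, and 3 to 54 with 1 library left out. Of the 10 most alike genes, 3 were shared with a Spearman ranking and 6 with a minimum of 5 CPM. In the families, the block called 1 desmosome gene, 1 *Clca* gene, 1 protease and 1 squamous marker lower and 2 proteases higher, and DESeq2 called 1 desmosome gene, 1 protease and 1 squamous marker lower and 1 protease higher. With 1 library left out, desmosome genes called higher and lower, *Clca* genes higher, proteases higher and squamous markers lower each ran from 0 to 1, enterocyte markers higher from 9 to 15 and colonic markers higher from 1 to 4. Log2 fold changes of some genes not called in the full fit changed sign with the library left out. They ran from -0.25 to 0.31 for *Car9*, -0.95 to 0.25 for *Clca3a2*, -0.16 to 1.93 for *Hpn*, -1.55 to 0.96 for *Prss33* and -1.53 to 1.50 for *Prss41*, lowest (*Clca3a2* highest) without 4-OHT replicate 2. They ran from -0.094 to 0.55 for *Dsp*, -0.17 to 0.069 for *Pkp3* and -0.32 to 0.10 for *Prss32*, with the other sign without EtOH replicate 1, where *Prss33* was -0.41 and *Prss41* -0.72. Without 4-OHT replicate 1 *Pkp2* was 0.021 (down to -0.14 otherwise) and *Prss16* -0.41 (-0.56 to 1.52 over all). The cause was not tested. Where a library is left out its partner is assumed to vary like the others. At 0 to 10 reads in a control, depth limits the folds, and the day 4 values have no replicate.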
